A study of Homo sapiens with 4 samples.

Results

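JAK kinases and STAT factors carry signals from cytokine receptors to the nucleus, and their transcripts were followed in H1944, a human lung cancer cell line, after inhibition of the mitotic kinase MPS1. The set is a fixed list of 8 genes chosen by name, with earlier results of these data known. It holds the 3 kinase genes JAK1, JAK2 and TYK2 and the 5 STAT genes STAT2, STAT3, STAT5A, STAT5B and STAT6. They are 8 of the 46427 rows of the deposited count sheets, each on a single row, and all 8 were among the 16738 genes that passed the filter on low counts. Cells were given BAY1217389, an inhibitor of MPS1 (also called TTK), or its solvent DMSO for 48 h, and RNA was taken 24 h after the medium was changed. Each treatment had 2 biological replicates of the same line, 4 libraries in all, and no dose is given in the labels. The design text places the work in the search for brakes on STING, the adaptor of cytosolic DNA sensing.

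JAKs are tyrosine kinases bound to the inner side of cytokine receptors. When a ligand brings receptor chains together, the JAKs phosphorylate the receptor and then a STAT protein, which pairs with another STAT and enters the nucleus to switch on genes. JAK1 and TYK2 serve the receptors of type I and type III interferons, and JAK1 and JAK2 those of interferon gamma. STAT2 acts after type I and type III interferons, in a complex with a partner STAT and the DNA-binding protein IRF9 that recognises the interferon-stimulated response element. STAT3 answers to the IL-6 family, STAT5A and STAT5B to growth hormone, prolactin and several interleukins, and STAT6 to IL-4 and IL-13. Transcript counts measure how much of each component is made as RNA and do not report phosphorylation.

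STAT5A and STAT5B are close copies, so their sequences bear on how far reads can be assigned to each. Both stand on chromosome 17. Their coding sequences in GENCODE release 29 are 87.0% identical over a global alignment, with an identical stretch of 429 bases from coding base 564 to 992 in both genes. Windows of 50 bases that are found unchanged in the other transcript make up 11.9% of the STAT5A transcript and 10.0% of the STAT5B transcript. Between any other pair of the 8 genes no such window was shared. The first 60 coding bases are shown to make the differences visible, with bases that differ between the aligned copies in capitals.
STAT5A, coding bases 1 to 60: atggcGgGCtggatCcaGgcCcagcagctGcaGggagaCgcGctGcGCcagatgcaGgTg
STAT5B, coding bases 1 to 60: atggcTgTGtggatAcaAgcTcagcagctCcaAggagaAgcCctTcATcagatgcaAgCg
In this stretch 15 bases differ in each copy. The middle of the identical stretch, coding bases 748 to 807, reads the same in both genes, so a read lying wholly inside it cannot be placed by its letters.
STAT5A and STAT5B, coding bases 748 to 807: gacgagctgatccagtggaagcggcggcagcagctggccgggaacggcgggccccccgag
The end of the coding sequence, which encodes the transactivation domain, differs in length between the copies, with 119 bases of STAT5A aligned to 83 of STAT5B.
STAT5A, coding bases 2264 to 2382: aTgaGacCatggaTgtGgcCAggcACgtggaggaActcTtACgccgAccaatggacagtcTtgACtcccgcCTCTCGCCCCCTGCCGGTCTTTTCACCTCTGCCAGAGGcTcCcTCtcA
STAT5B, coding bases 2279 to 2361: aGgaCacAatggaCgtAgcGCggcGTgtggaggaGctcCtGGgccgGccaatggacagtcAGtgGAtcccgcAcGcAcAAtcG
Capitals again mark differing bases, including those that face a gap.

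Summed over all rows, counts reached 39332931 and 38904473 in the controls (DMSO) and 43661342 and 43067647 in the treated libraries (BAY1217389). Levels are given as CPM, that is counts scaled to a common library size with TMM factors, and a mean ± SD is over the 2 libraries of a group. Of 5 epithelial markers, 4 reached a mean of 1 CPM, led by KRT8 and KRT18, and KRT19 is listed at 0 in all 4 libraries. Of 5 markers of lung adenocarcinoma only KRT7 reached that level, while NKX2-1 and SFTPB are listed at 0. The leukocyte marker PTPRC is listed at 0 in all 4 libraries, and CD14, a marker of monocytes, lay between 1.47 and 2.10 CPM. The T cell marker CD3E had 0 to 2 reads. LYZ, the lysozyme gene of myeloid cells, had 0 and 5 reads in DMSO and 17 and 33 after BAY1217389 and was called higher (log2 fold change 3.13, edgeR adjusted p = 0.00266). LYZ passed the filter on low counts only through the treated libraries. The 5 fibroblast markers summed to 33.3 and 29.5 CPM in DMSO and to 46.0 and 45.6 CPM after BAY1217389, with COL1A1, DCN and LUM called higher and COL1A2 and PDGFRA at 0. The 4 endothelial markers summed to 0.787 and 0.792 CPM in DMSO and to 2.00 and 1.92 CPM after BAY1217389, with PECAM1 called higher and VWF, CDH5 and KDR at 0 in DMSO. Their part in the results was not tested. In bulk RNA, fewer cells that express a gene and less of its RNA per cell cannot be told apart.

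The JAK and STAT genes were mostly higher after BAY1217389, and STAT2 rose by far more than the others. Of the 8 genes, 6 rose (STAT2, STAT5A, JAK2, STAT3, JAK1 and STAT6), and TYK2 and STAT5B did not pass the test. Because the 8 were chosen with earlier results of these data known, their count is not independent of the data. Of all genes tested, 14.5% were called higher, 13.3% lower and 27.8% in either direction. When only genes reaching 5 CPM in 2 libraries are counted, the share called higher was 20.7%. A log2 fold change of at least 1 with a call was reached by 1 of the 8, STAT2, and by 3.21% of all genes tested. The median log2 fold change of the 8 genes was 0.24, and that of all genes tested was 0.0011. Both BAY1217389 libraries lay above both DMSO libraries for 6 of the 8 genes, as they did for 30.5% of all genes tested. None of the 8 was called lower by edgeR's quasi-likelihood test, limma-voom or DESeq2 with all libraries, and 1 of them, STAT5B, was lower at an unadjusted p under 0.05 in edgeR. Calls rest on that edgeR test with Benjamini-Hochberg adjustment over all genes tested and a threshold of 0.05. Tested against a fold change of 1.2 in place of no change, only STAT2 of the 8 was called. On that test 891 of the 16738 genes were higher and 303 lower.

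**Figure D1:**
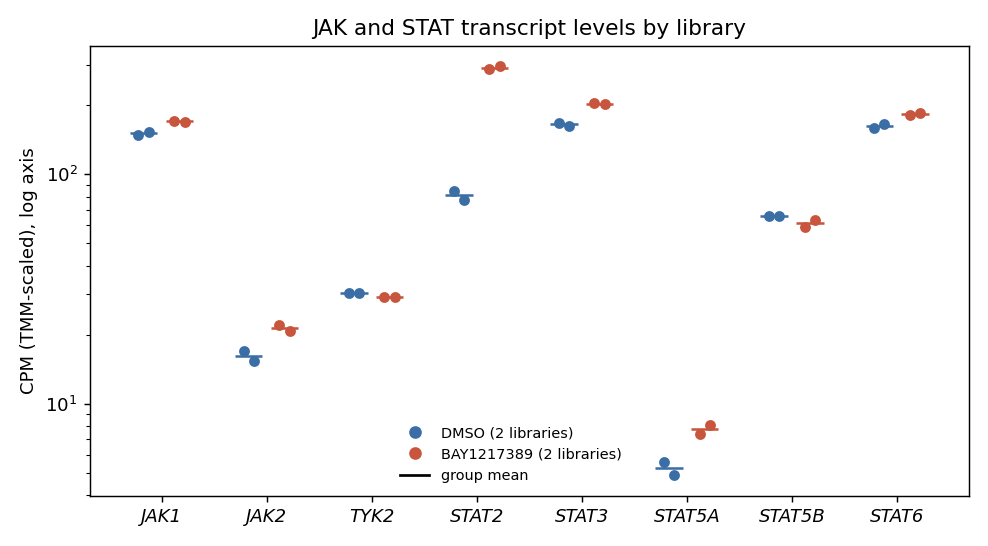
Levels of the 8 JAK and STAT genes in each library, in CPM on a log axis, with DMSO in blue and BAY1217389 in red; each point is a library and each bar the mean of 2. STAT2 goes from 80.9 to 291 CPM, and the points of both groups lie close together for TYK2 and STAT5B.

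**Figure D2:**
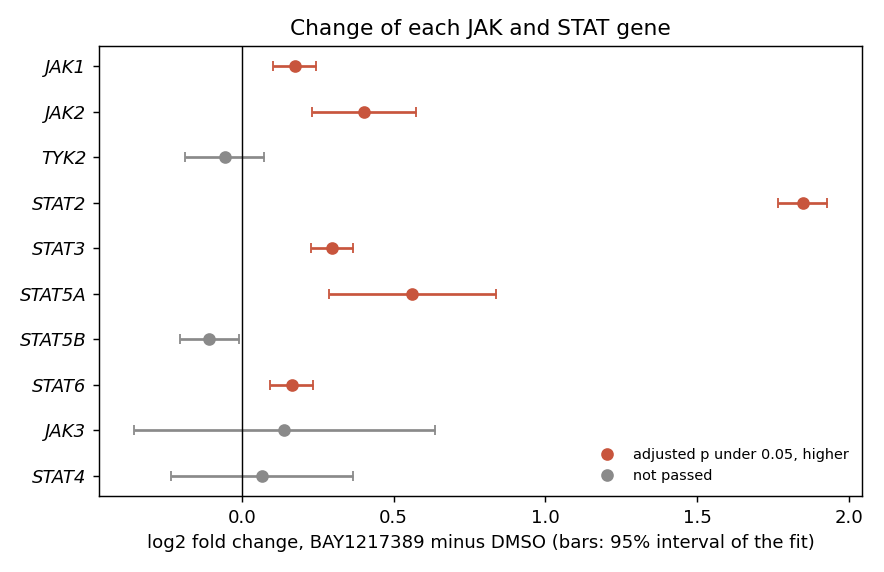
Log2 fold change of each gene, BAY1217389 minus DMSO, with the 95% interval of the fit, for the 8 genes and for JAK3 and STAT4. STAT2 stands at 1.85, the other called genes between 0.16 and 0.56, and the intervals of TYK2, JAK3 and STAT4 include 0.

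JAK1 is the kinase shared by interferon, IL-6-type and many interleukin receptors, and its transcripts were the most abundant of the 3 kinases. Its reads numbered 5859 and 5991 in DMSO and 7468 and 7237 after BAY1217389, or 149 and 153 CPM against 171 and 169 CPM. The groups did not overlap and the rise was small. The log2 fold change of JAK1 was 0.17 ± 0.03 (SE), with an edgeR adjusted p of 1.67e-04. JAK2, which serves interferon gamma, growth hormone and erythropoietin receptors, had 671 and 599 reads in DMSO and 961 and 886 after BAY1217389. In CPM these are 17.04 and 15.3 against 22.1 and 20.7, again without overlap. Its log2 fold change was 0.40 ± 0.08 (SE) with an edgeR adjusted p of 2.91e-04, a 1.32-fold rise.

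TYK2, the kinase on the IFNAR1 and IL10RB chains of the interferon receptors, did not pass. It had 1202 and 1193 reads in DMSO and 1277 and 1255 after BAY1217389, which is 30.5 and 30.5 CPM against 29.3 and 29.3 CPM. Both BAY1217389 libraries were slightly below both DMSO libraries, as for 30.5% of all genes tested. The log2 fold change was -0.06, with a 95% interval of -0.19 to 0.07 (edgeR adjusted p = 0.576). Because the libraries within each group were nearly equal, the SDs of 0.0272 and 0.00987 CPM lie below counting error and are no measure of precision. Of the reads on the 3 kinase genes, TYK2 held 15.5% (exact 95% binomial interval 14.7 to 16.4) and 15.3% (14.5 to 16.1) in DMSO and 13.2% (12.5 to 13.8) and 13.4% (12.7 to 14.1) after BAY1217389. JAK2 held 8.68% (8.06 to 9.33) and 7.70% (7.11 to 8.31) in DMSO and 9.90% (9.31 to 10.5) and 9.45% (8.86 to 10.1) after BAY1217389, and JAK1 between 75.8 and 77.2% in all 4 libraries.

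STAT2, the STAT of the type I and type III interferon response, rose most. Control libraries gave it 3338 and 3015 reads, treated libraries 12502 and 12639. In CPM these are 84.8 and 77.0 against 287 and 295, so the lowest treated library was more than 3 times the highest control. Its means were 80.9 ± 5.46 and 291 ± 5.92 CPM. The rise was 3.60-fold, or 1.85 on the log2 scale (SE 0.04), with an edgeR adjusted p of 1.03e-25. By log2 fold change it was number 301 of 16738 genes tested, so 1.79% of genes rose more. IRF9, the DNA-binding partner in the STAT2 complex, had 1830 and 1780 reads in DMSO and 3880 and 3892 after BAY1217389. IRF9 had a log2 fold change of 0.97 ± 0.05 (SE) with an edgeR adjusted p of 1.01e-18. The ratio of STAT2 reads to IRF9 reads, which does not depend on library scaling, was 1.82 and 1.69 in DMSO and 3.22 and 3.25 after BAY1217389, a difference that was not tested.

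The promoter of STAT2 is shown because it is the gene with the largest change. The sequence shown is the 250 bases before its start from RefSeq, GRCh38.p14 chr12:56360108-56360357, on the minus strand and written in the direction of transcription.
STAT2 promoter: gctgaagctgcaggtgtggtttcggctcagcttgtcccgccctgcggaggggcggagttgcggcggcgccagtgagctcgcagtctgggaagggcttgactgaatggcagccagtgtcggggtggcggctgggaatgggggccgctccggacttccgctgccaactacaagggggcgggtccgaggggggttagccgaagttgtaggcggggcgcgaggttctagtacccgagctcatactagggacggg
Windows of 300 bases at each start, which reach 50 bases past it, were searched on both strands for the core of the interferon-stimulated response element, GAAA and GAAA with any 2 bases between them, and for that of STAT dimer sites, TTCNNNGAA. Neither core was found in the windows of STAT2 or of the other 7 genes, so no letters are capitalised. Over all 35116 windows in the table, 3.57% held the first core and 7.66% the second. Counted by gene over all of its windows, 4.38% of 27305 genes held the first core and 9.38% the second. The pathway and similar-pattern genes searched leave out the neighbouring genes, JAK3, STAT4, HSP90AB1 and other list genes named outside the selection given under processing. Among those searched, the first core was found at SOCS1, NMI, CD274, IFNL1, IFNL2 and TRIM14. The second was found at IFNLR1, LIFR, IL15RA, IRF9, NMI, CD274 and CISH. A match describes letters in a window and does not show binding.

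STAT3, which answers to IL-6-type cytokines, had 6620 and 6351 reads in DMSO and 8915 and 8621 after BAY1217389. In CPM these are 168 and 162 against 205 and 202, without overlap. The log2 fold change was 0.30 ± 0.03 (SE) with an edgeR adjusted p of 9.38e-09, 1.23-fold. STAT6, which acts after IL-4 and IL-13, had 6296 and 6507 reads in DMSO and 7887 in each BAY1217389 library. Its levels were 160 and 166 CPM against 181 and 184 CPM, which is a log2 fold change of 0.16 ± 0.03 (SE) with an edgeR adjusted p of 3.36e-04. STAT3 and STAT6 thus began at similar read numbers, and the rise was called for both.

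STAT5A and STAT5B, the copies described above, gave different results. STAT5A had 220 and 191 reads in DMSO and 323 and 344 after BAY1217389, or 5.59 and 4.88 CPM against 7.42 and 8.04 CPM. It was the least abundant of the 8 genes, and the groups did not overlap. Its log2 fold change was 0.56 ± 0.14 (SE) with an edgeR adjusted p of 0.00157, with a 95% interval of 0.29 to 0.84. STAT5B had 2595 and 2572 reads in DMSO and 2578 and 2697 after BAY1217389, or 65.9 and 65.7 CPM against 59.2 and 63.0 CPM. The log2 fold change of STAT5B was -0.11 (95% interval -0.20 to -0.01, edgeR adjusted p = 0.0936). Without BAY1217389 replicate 2, STAT5B was called lower (log2 fold change -0.15, edgeR adjusted p = 0.0455, over a range of 0.0455 to 1 in the alternatives tried).

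As a share of the reads on both copies, STAT5A held 7.82% (exact 95% binomial interval 6.85 to 8.87) and 6.91% (5.99 to 7.92) in DMSO. After BAY1217389 it held 11.1% (10.0 to 12.3) and 11.3% (10.2 to 12.5). The intervals, which cover counting error only, of the 2 groups did not overlap. The mean share went from 7.36 ± 0.638% to 11.2 ± 0.126% (n = 2 per group). An exact two-sided permutation test of the share gave p = 0.333, the smallest that 2 against 2 libraries allow. With the reads of both copies summed before the fit, the log2 fold change was -0.05 (95% interval -0.14 to 0.05, edgeR adjusted p = 0.524), since STAT5B supplies most of the reads. The handling of reads common to both copies is not given in the sources used here. The level of STAT5A in particular is therefore uncertain.

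**Figure D3:**
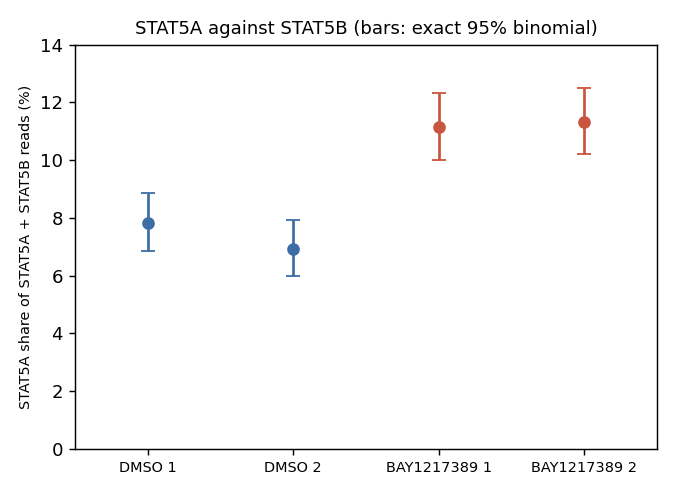
STAT5A reads as a percentage of STAT5A plus STAT5B reads in each library, with exact 95% binomial intervals; DMSO is blue and BAY1217389 red. The DMSO libraries are at 7.82 and 6.91% and the BAY1217389 libraries at 11.1 and 11.3%.

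The make-up of the STAT reads shifted with STAT2. Of the reads on the 5 STAT genes, STAT2 held 17.5% (exact 95% binomial interval 16.97 to 18.05) and 16.2% (15.7 to 16.7) in DMSO. After BAY1217389 its share was 38.8% (38.3 to 39.4) and 39.3% (38.7 to 39.8). STAT3 went from 34.7 and 34.1% to 27.7 and 26.8%, and STAT6 from 33.0 and 34.9% to 24.5 and 24.5%, although both rose in CPM. STAT5B went from 13.6 and 13.8% to 8.005 and 8.38%, while STAT5A stayed between 1.00 and 1.15% in all 4 libraries. All 8 genes together made up 681 and 675 CPM in DMSO and 962 and 972 CPM after BAY1217389.

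**Figure D4:**
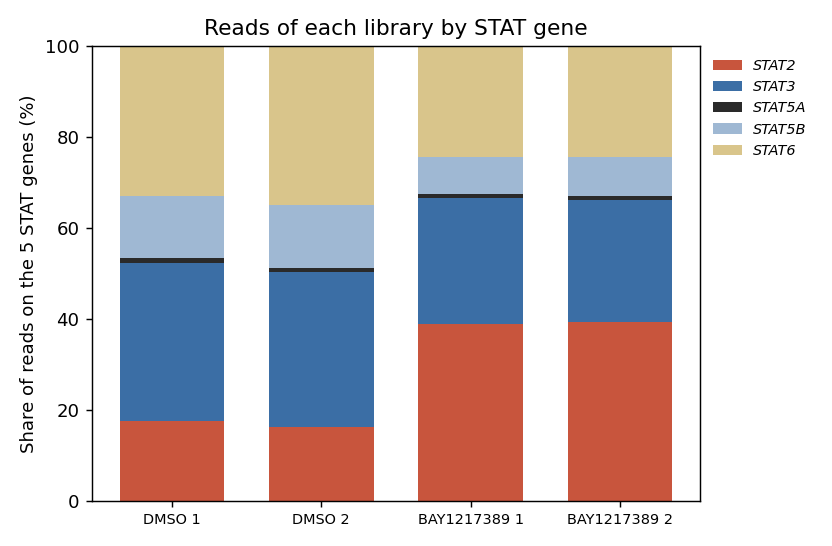
Reads of each library on the 5 STAT genes, as percentages that add to 100. The STAT2 section is 17.5 and 16.2% under DMSO and 38.8 and 39.3% under BAY1217389.

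Compared per kilobase of coding length, STAT3 had the highest level in DMSO cells and STAT2 the highest after BAY1217389. In DMSO the order was STAT3 (71.5 ± 1.78 CPM per kilobase), STAT6 (64.2 ± 1.78), JAK1 (43.6 ± 0.879), STAT2 (31.7 ± 2.14), STAT5B (27.9 ± 0.0521), TYK2 (8.57 ± 0.00763), JAK2 (4.76 ± 0.361) and STAT5A (2.20 ± 0.210). After BAY1217389 STAT2 stood at 114 ± 2.32 CPM per kilobase, above STAT3 at 87.9 ± 0.975 and STAT6 at 71.9 ± 0.908, and the other 5 kept their order. The libraries of neighbours in this order did not overlap in either group. Per kilobase of full transcript, a scale added after seeing the data, STAT6 was above STAT3 in both groups, at 40.4 against 32.7 CPM per kilobase in DMSO and 45.3 against 40.2 after BAY1217389. The order of STAT3 and STAT6 thus depends on the length used.

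Neighbouring genes could share reads where counting ignored strand, so their values are given. STAT6 overlaps NAB2, a corepressor gene, in the RefSeq table, and NAB2 went from 21.0 to 26.1 CPM (log2 fold change 0.31, edgeR adjusted p = 0.00123). Beyond the other end of STAT6, the receptor gene LRP1 had a log2 fold change of 0.24 with an edgeR adjusted p of 3.73e-05. STAT2 lies between IL23A, with 15 and 18 reads in DMSO and 28 and 48 after BAY1217389, and APOF, listed at 0. STAT2 itself had 3015 to 12639 reads, and sharing of reads was not tested. STAT5B, STAT5A and STAT3 follow each other on chromosome 17, between GHDC (log2 fold change 0.10, edgeR adjusted p = 0.357) and CAVIN1, a caveola gene that rose from 200.5 to 258 CPM. STAT5A and STAT5B overlap in the table. JAK1 overlaps RAVER2 (log2 fold change -0.17, edgeR adjusted p = 0.135) and LINC01359, which had 2 reads in all, and the genes that overlap JAK2, INSL6 and CSNK1G2P1, are listed at 0. Beside TYK2 stand ICAM3 (log2 fold change -0.32, edgeR adjusted p = 0.160) and CDC37 (0.15, edgeR adjusted p = 0.00474). CDC37 no longer passed when DMSO replicate 1 (edgeR adjusted p = 0.0542) or BAY1217389 replicate 2 (0.131) was left out.

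JAK3 and STAT4, family members best known from lymphocytes, were low, as was STAT5A among the 8 genes. In DMSO the means were 1.94 CPM for JAK3, 5.26 for STAT4 and 5.23 for STAT5A, without scaling by length. JAK3 had 77 and 75 reads in DMSO and 77 and 107 after BAY1217389, a log2 fold change of 0.14 with a 95% interval of -0.36 to 0.64 (edgeR adjusted p = 0.737). STAT4 had 207 and 206 reads in DMSO and 253 and 223 after BAY1217389, a log2 fold change of 0.07 with a 95% interval of -0.23 to 0.37 (edgeR adjusted p = 0.795). The groups overlapped for both genes, and neither sign is settled, since JAK3 was at -0.13 without BAY1217389 replicate 2 and STAT4 at -0.02 without BAY1217389 replicate 1.

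The wider pathway was described through 10 lists written from textbook knowledge, but with earlier results of these data known. Counts drawn from them are therefore not independent of the data. The lists hold 121 different genes, 93 of them tested. The counts below stand beside 14.5% called higher and 13.3% called lower of all genes tested, and 20.7% called higher of genes reaching 5 CPM in 2 libraries. A median is given only for lists whose genes were all tested. For the test against a fold change of 1.2 the shares above do not apply, and 891 of all 16738 genes tested were higher. On that test, 1 interferon receptor, 0 IL-6-type receptors, 3 other JAK-coupled receptors and 2 SOCS genes were higher. So were 1 other brake, 2 partners and coactivators, 4 STAT3, 1 STAT5 and 4 STAT6 targets and 9 ligands. Of 23 ligands that signal through JAKs, 12 were tested and 10 of those were called higher. The other 11 did not pass the filter on low counts, and IFNB1, IFNL1, IFNL2 and IFNL3 passed it only through the treated libraries, so the count cannot be read as a share of the ligands. For IL6, which signals through gp130 to STAT3, 220 and 208 reads in DMSO stood against 995 and 915, and its log2 fold change was 2.02. IFNL1 and IFNL2 encode type III interferons. IFNL1 had 5 and 2 reads in DMSO and 241 and 309 in the treated libraries. IFNL2, without a read in DMSO, had 202 and 270 in the treated libraries, which is at least 143-fold higher when DMSO is set to 3 reads over the group, and its reads may be shared with near-identical copies. No read fell on IFNG, IL4 or IL13, the ligands of interferon gamma and STAT6 signalling, in any library.

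Of 6 interferon receptor genes, 5 were higher, and the median log2 fold change was 0.20. IFNAR1 did not pass, at 0.05 (edgeR adjusted p = 0.515). IFNGR1, a chain of the interferon gamma receptor, had a log2 fold change of 0.21 ± 0.03 (SE) with an edgeR adjusted p of 1.47e-05 and IFNLR1, the specific chain for type III interferons, 0.70 (SE 0.18, edgeR adjusted p = 0.00269). IFNAR2, a chain of the type I interferon receptor, had a log2 fold change of 0.24 with an edgeR adjusted p of 0.00551. The count of higher genes was 3 without DMSO replicate 2 and 2 without BAY1217389 replicate 2. Those no longer passing included IFNAR2 in the former case (edgeR adjusted p = 0.0515) and IFNLR1 in the latter (0.101).

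Of 7 receptors of the IL-6 type, 6 were tested and 2 were higher. They were IL6ST, which encodes the shared chain gp130 (log2 fold change 0.28 ± 0.04 SE, edgeR adjusted p = 1.43e-07), and OSMR, the oncostatin M receptor (0.09, SE 0.03, edgeR adjusted p = 0.00603). LIFR did not pass, at -0.14 (edgeR adjusted p = 0.0612), and was called lower without BAY1217389 replicate 1 (0.0364) and with upper-quartile normalization (0.0465). OSMR no longer passed without DMSO replicate 1, DMSO replicate 2 or BAY1217389 replicate 1 (edgeR adjusted p = 0.0787, 0.103 and 0.0637), which left 1 higher gene. Of 21 other JAK-coupled receptors, 13 were tested and 4 were higher, against 2 with DESeq2 and 1 with a filter of 5 CPM in 2 libraries. IL22RA1, a chain of the IL-22 receptor, went from 29 and 28 reads to 145 and 151, and IL15RA from 107 and 119 reads to 293 and 260. IL7R, without a read in DMSO, had 23 and 16 in the treated libraries, at least 11.8-fold higher when set against 3 reads over the DMSO group. IL7R is among the 4 called and passed the filter on low counts only through the treated libraries.

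SOCS proteins are induced by STATs and switch JAK signalling off. Of 8 SOCS family genes, 4 were higher, beside 14.5% of all genes tested, and the median log2 fold change was 0.18. Count and median include SOCS1, which passed the filter on low counts only through the treated libraries. SOCS1 went from 4 and 10 reads to 51 and 29 (log2 fold change 2.36, SE 0.53) and SOCS2 from 78 and 48 reads to 182 and 154 (1.28, SE 0.23). SOCS3, the main brake on gp130 signalling, went from 40.5 to 48.3 CPM (log2 fold change 0.25, edgeR adjusted p = 9.16e-04). CISH, a STAT5 target that restrains STAT5, had 36 and 43 reads in DMSO and 48 and 33 after BAY1217389, a log2 fold change of -0.10 with an edgeR adjusted p of 0.873. The count of higher SOCS genes was 2 without DMSO replicate 1 and 2 without BAY1217389 replicate 1. Those lost included SOCS3 in the former (edgeR adjusted p = 0.0711) and SOCS1 in the latter (0.129), and the log2 fold change of SOCS1 lay between 1.84 and 3.15 with a library left out.

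Among 14 other brakes, 12 were tested, 3 were higher and 2 lower, beside 14.5% and 13.3% of all genes tested. USP18, which displaces JAK1 from the type I interferon receptor, stood at 11.1 CPM in DMSO and 145 CPM after BAY1217389 (log2 fold change 3.71, SE 0.05), with reads that related copies may share. PTPN11, the phosphatase SHP2, was lower (-0.22, SE 0.03, edgeR adjusted p = 1.23e-07), and the adaptor gene SH2B3, an inhibitor of JAK2, was higher (0.39, SE 0.10, edgeR adjusted p = 0.00268). Without BAY1217389 replicate 2 the count of higher brakes was 1, and SH2B3 was among those that no longer passed (edgeR adjusted p = 0.0509). The count of lower brakes was 1 with DESeq2, 1 without DMSO replicate 2 and 1 without BAY1217389 replicate 1. Of 17 partners and coactivators, 6 were higher and 1 lower, with a median of 0.08. Besides IRF9, they included NMI, a STAT-binding protein (1.48, SE 0.08), and the acetyltransferase gene EP300 (0.21, SE 0.04). The lower gene, HSP90AB1, named after its value was seen, was at -0.07 and did not pass without DMSO replicate 1 or without BAY1217389 replicate 1.

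Each list of STAT targets held more genes called higher than called lower, beside 14.5% higher and 13.3% lower of all genes tested. Of 16 STAT3 targets, 10 were higher and 1 was lower, and the median log2 fold change was 0.23. Count and median include LBP, with 10 and 8 reads in DMSO and 31 and 29 after BAY1217389. LBP passed the filter on low counts only through the treated libraries. The survival gene MCL1 (0.45, SE 0.03) and FGG, a fibrinogen chain gene of the acute phase response (0.62, SE 0.04), were higher, and BIRC5, which encodes survivin, was lower (-0.81, SE 0.05). Of 10 STAT5 targets, 7 were tested and 2 were higher, SOCS2 and the survival gene BCL2L1 (0.20, SE 0.03), while PIM2 (0.71, edgeR adjusted p = 0.164) did not pass. The others tested did not pass either and had negative log2 fold changes, CISH (-0.10), BCL6 (-0.09), PIM1 (-0.06) and ID1 (-0.06). Of 10 STAT6 targets, 6 were tested and 4 were higher, against 2 with a filter of 5 CPM in 2 libraries. They included TGM2, a transglutaminase (0.80, SE 0.03), CD274, which encodes PD-L1 (3.39, SE 0.17), and the chemokine CCL26 (1.13, SE 0.24). SOCS1 was also among them and passed the filter on low counts only through the treated libraries. IL4R (-0.01, edgeR adjusted p = 0.910) and CISH did not pass. Of those not tested, CCL17, FCER2 and POSTN are listed at 0 in all libraries and ALOX15 had 0 to 5 reads. The count of 4 therefore cannot be read as a share of the STAT6 targets. Several of these genes answer to other factors as well and a few stand in more than 1 list.

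**Figure D5:**
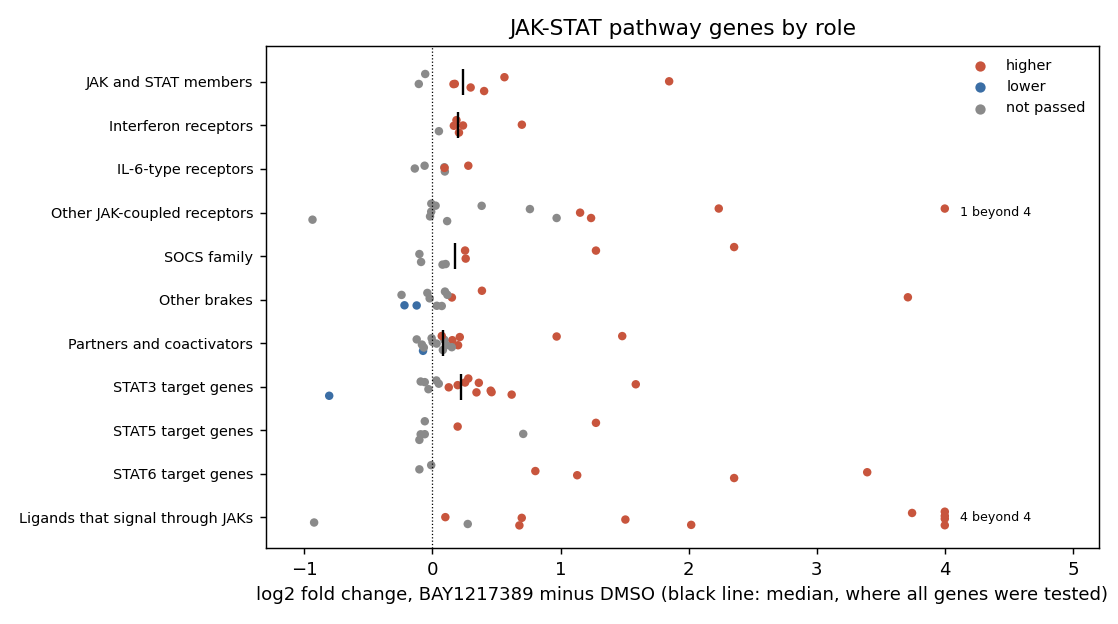
Log2 fold change of each tested gene, BAY1217389 minus DMSO, by role in the pathway, with red for higher, blue for lower, grey for not passed and a black line at the median where all genes of a list were tested; points beyond 4 are drawn at 4. The median is 0.24 for the 8 JAK and STAT genes and 0.20 for the interferon receptors, and the ligand row shows the 12 of 23 that passed the filter on low counts.

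The genes most like STAT2 over the 4 libraries were TRIM14, IFI16 and APOL6. Likeness was the Euclidean distance between log2 CPM values centred on each gene's mean, over 10899 genes reaching 5 CPM in the higher group, and was 0.0808, 0.0864 and 0.117. TRIM14 had a log2 fold change of 1.92, IFI16 of 1.83 and APOL6 of 1.77. Those most like STAT3 were COL12A1, DNAJB4 and ZNF652, at distances of 0.0173, 0.0197 and 0.0197 and log2 fold changes of 0.30, 0.31 and 0.28. With 4 libraries in 2 groups, this measure mainly ranks genes by the size of their change.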

How the data were processed

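Each library came as raw read counts, deposited by the authors as whole numbers on rows that carry a symbol and RefSeq IDs. Libraries were made with a stranded mRNA kit, per the labels' protocols, and hg18 is the build named in the submitters' processing notes. Which aligner, counter and strand setting were used is not given in the sources used here, and RefSeq IDs issued after hg18 make the annotation uncertain. The workbooks' 4 other columns of per-sample values match no sample and were not used. The analysis ran in edgeR 4.0.16 under R 4.3.3: filterByExpr (minimum count 10, minimum total 15) kept 16738 of 46427 rows, TMM factors lay between 0.994 and 1.01, and glmQLFit (robust) and glmQLFTest tested treatment, two-sided. The fit had 2 residual and 31.1 prior degrees of freedom. DESeq2 1.42.0 and voom from limma 3.58.1 were alternatives. The labels call the libraries biological replicates without naming separate cultures, so p-values measure only the spread between these samples. Within each group the libraries differed beyond counting noise (chi-square per gene 3.74 and 3.93). Reads carry no molecular identifiers, so intervals and limits cover counting error only. A count of 0 allows 3 reads, that is up to 0.0771 CPM in a library and 0.0383 CPM over both DMSO libraries.

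Lengths and coding sequences came from GENCODE release 29 transcripts paired with each row's RefSeq identifiers, in place of a planned protein table, so protein identity was not computed. Promoters were matched by symbol to RefSeq (GRCh38.p14) for all 8 genes, and IFNAR2, SOCS2, USP18, PTPN11, MCL1, BIRC5, TGM2 and APOL6 had no entry. Only neighbour relations were taken from the RefSeq gene table. Genes named were the 8, up to 3 genes with the smallest p per list, IRF9, SOCS1, SOCS3 and CISH, the neighbours, and 3 genes of similar pattern for the 2 genes with the smallest p. Further list genes were named outside this selection, to show limits of the filter or values going the other way. The members and lists were chosen with earlier results of these data known. Part of the marker lists is not reported here.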

Additional observations from a re-analysis of the deposited data

How the results depend on the processing

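Each of the 8 JAK and STAT genes was refitted under 13 alternatives. A further 46 genes, named by the selection given under processing, gave 585 values, since some had none under the stricter filter or in DESeq2. The 6 JAK and STAT genes called higher remained 6 under 12 of them, and the test against a fold change of 1.2 called 1 higher. The number called lower was 0 to 1 with a library left out. STAT2 ranged from 1.78 to 1.92, STAT5A from 0.47 to 0.66, JAK2 from 0.33 to 0.48, STAT3 from 0.27 to 0.32, JAK1 from 0.15 to 0.19, STAT6 from 0.13 to 0.19, TYK2 from -0.07 to -0.04 and STAT5B from -0.15 to -0.07. With STAT5A and STAT5B summed, the value of -0.0450 has the opposite sign to STAT5A alone. Over all genes, 2428 were higher and 2232 lower, against 1591 and 1409 with DESeq2 and 891 and 303 against a fold change of 1.2, and 1720 to 2107 and 1687 to 1719 with a library left out. The sign turned for CISH without DMSO replicate 2 (0.0334) and without BAY1217389 replicate 2 (0.134), for JAK3 (-0.127) and GHDC (-0.0079) without BAY1217389 replicate 2, and for STAT4 without BAY1217389 replicate 1 (-0.0163). With a library left out, CISH ranged from -0.386 to 0.134, JAK3 from -0.127 to 0.366, GHDC from -0.0079 to 0.198 and STAT4 from -0.0163 to 0.147. The cause was not tested. The labels give same-numbered libraries a number in common and do not say whether they were handled together. With the number as a block, 2466 genes were higher and 2326 lower, 6 and 0 of the JAK and STAT genes. Deviations of same-numbered libraries correlated at 0.044, which does not settle whether they were paired. The block also called LIFR lower (edgeR adjusted p = 0.0442). Of 260 recomputed list counts, 225 were within 1.5 times the main count or stayed at 0. Many of these are counts of lower genes that were 0 in the main fit, where a ratio has no meaning. Low counts limit the precision for genes such as IL7R, IL23A, SOCS1 and JAK3. With 1 library left out, the lone library of a group is assumed to vary like the others.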
